A study of Arabidopsis thaliana with 20 samples.

Results

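UDP-glycosyltransferase (UGT) genes of Arabidopsis thaliana were followed through a study of the direct targets of VND7, a NAC transcription factor that drives the formation of xylem vessels. The UGT genes were taken as every probe set that maps to exactly 1 nuclear gene with a RefSeq symbol or synonym of UGT and a family number, with 1 probe set per locus. This gave 51 genes, out of 13217 nuclear genes with a probe set of their own (13367 probe sets) and 22746 probe sets in all. RefSeq lists 64 such UGT loci, and the other 13 were not analysed here. Among those, UGT89B1, UGT71D1, UGT73B2 and UGT73B3 lie on probe sets paired with several genes.

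The study hybridised total RNA of 10-day-old whole seedlings to 20 one-colour Affymetrix arrays, in 4 groups of 5 replicates numbered 1 to 5. The VND7 fusion line (labelled 35S:VND7-VP16-GR, in 1 field 35S:VND-VP16-GR:NOS) carried VND7 joined to the VP16 activation domain and to GR, the steroid-binding part of the glucocorticoid receptor, which keeps the fusion inactive until dexamethasone (DEX) is given. The empty-vector line (35S:VP16-GR:NOS) carried VP16-GR without VND7, and both lines are labelled homozygous with a single insertion. The groups were the VND7 line with DEX and cycloheximide (CHX), the VND7 line with CHX alone, the empty-vector line with DEX and CHX, and the empty-vector line with CHX alone. All 4 groups therefore received CHX, an inhibitor of protein synthesis, for 2 h alone and then for 4 h with or without DEX, so no group shows UGT expression without CHX. Doses are given as 10 µM in the treatment protocol and as 10 mM in other labels. Both transgenes were driven by the 35S promoter, which is active in most cell types, and each line stands for 1 insertion. Since no label calls the replicates separate cultures, the p-values reflect the variation among these arrays, and part of it may be technical.

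UGTs join an activated sugar, most often glucose from UDP-glucose, to small molecules. Glycosylation changes the solubility, storage and activity of flavonoids, lignin precursors, hormones, sterols and foreign compounds. The family number (UGT71, UGT72 and so on) groups genes of similar protein sequence, and genes of a family often lie side by side on a chromosome. In these data 24 of the 51 genes lay in 10 runs of adjacent UGT loci with at least 2 measured genes, such as UGT71C5, UGT71C4 and UGT71C3 on chromosome 1. Whether probes also bind transcripts of such neighbours was not tested.

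Signals are on the scale of the Affymetrix MAS5 algorithm, on which each array's trimmed mean lay between 496.06 and 496.62 and its median between 159.7 and 186. Rubisco activase (RCA) had 14967.3 to 26164.4 and the light-harvesting gene LHCB4.1 had 10597.3 to 18827.9, the signals of green tissue. The root-hair expansin genes EXPA7 (3 to 69.3) and EXPA18 (32.8 to 97.8) stayed below every array's median, although whole seedlings include roots. None of the 9 listed xylem markers, VND7 among them, had a probe set assigned to it alone by the annotation used. That annotation assigned 13367 of the 22746 probe sets to 1 nuclear gene. Whether the array carries probes for these markers was not checked. In whole seedlings, fewer cells of a type and less RNA per cell cannot be told apart.

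The 51 genes fell into 12 families: UGT71 with 9, UGT76 with 8, UGT73 with 7, UGT72, UGT84 and UGT85 with 5 each, UGT74 and UGT78 with 3 each, UGT79 and UGT80 with 2 each, and UGT87 and UGT88 with 1 each. 22 genes lay above the array median on all 20 arrays, 12 on some arrays and 17 on none. The share of all probe sets above the array median on all 20 arrays was not worked out. By family, the genes above it on all 20 arrays were 6 of 9 in UGT71 and 4 of 7 in UGT73. They were 1 of 8 in UGT76, 1 of 5 in UGT84 and 1 of 5 in UGT85. Among the genes always above it were UGT73B4 (4062 to 7597.2) and UGT73B5 (3269.5 to 6971.4), both known to respond to pathogens and stress, and UGT87A2 (2784.2 to 4906.2), which affects flowering time. At the other end UGT79B6 read 1.4 to 16 and UGT72E3, a monolignol glucosyltransferase, 2.5 to 36.3. Signals of different probe sets depend on the probes and are not set against each other as transcript amounts. The counts above the array median therefore do not rank the families by expression.

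**Figure D1:**
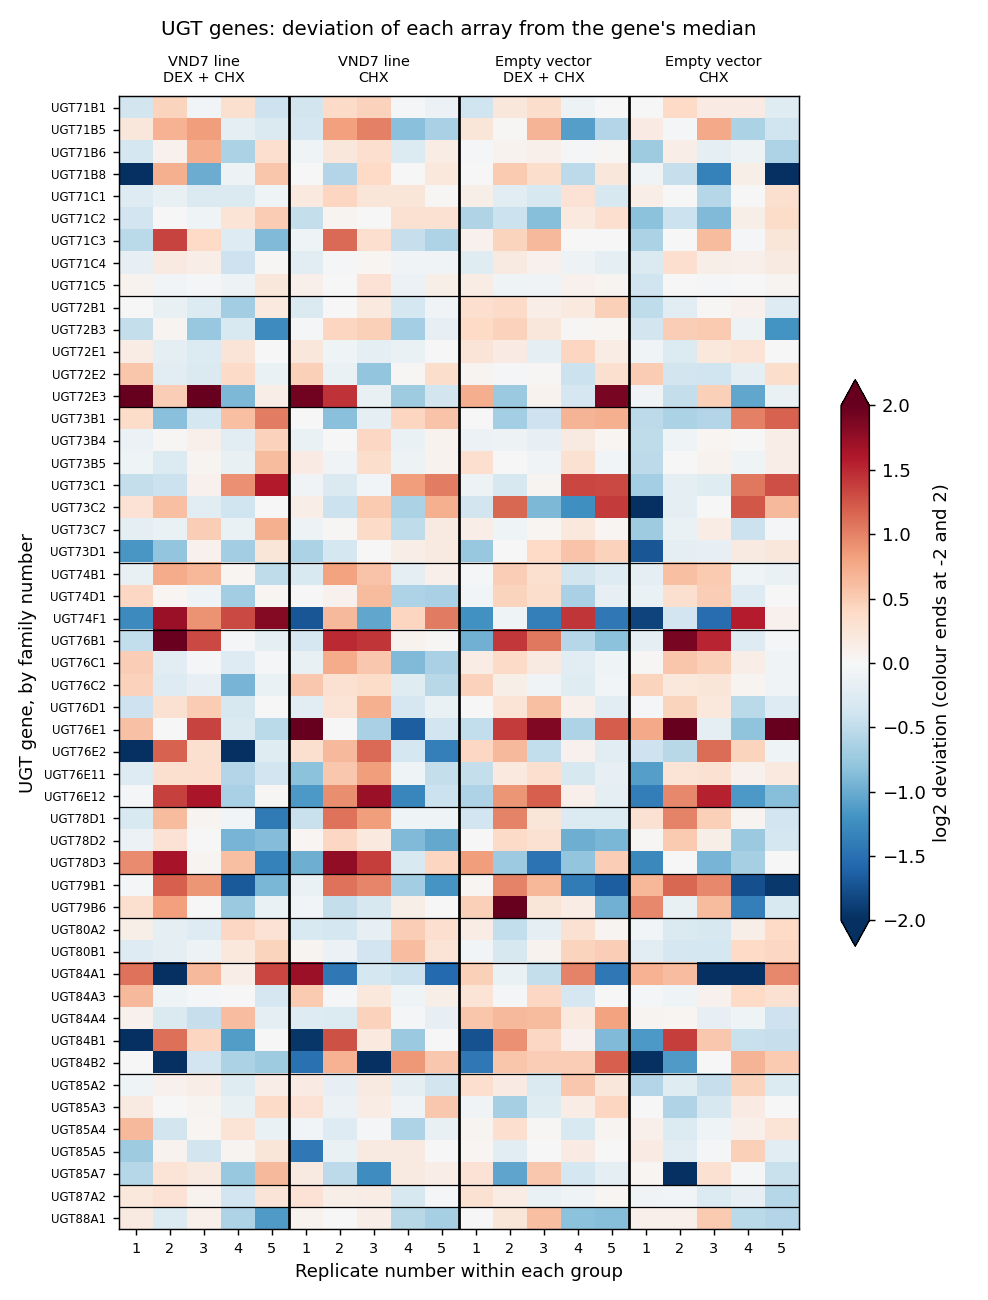
Heat map of the 51 UGT genes (down the page, by family number) on the 20 arrays (across, replicate numbers 1 to 5 within each of the 4 groups). Colour gives the log2 deviation from the gene's own median over the arrays, and the scale ends at -2 and 2. UGT76B1, UGT78D2 and UGT79B1 show the same columns high and low in all 4 groups.

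To ask whether the activated VND7 fusion changed UGT transcripts, the VND7 line with DEX and CHX was compared with the same line under CHX alone. No UGT gene passed an adjusted p of 0.05 (0 of 51, against 0.453% of all probe sets), and at an unadjusted p of 0.05 1 of 51 did (1.96%, against 3.44% of all probe sets). With the replicate number as a block, a fit that takes out what same-numbered arrays share, the count was also 0 (1.04% of all probe sets passed). In this line 24 of 51 differences were above zero, against 45.5% over all probe sets. The median log2 difference over the 51 genes was -0.02, as it was over all probe sets (-0.02), and 44 of the 51 lay within 0.5 of zero. The median standard error of a difference was 0.269, and 0.167 with the block. Differences several times their standard error could still miss the adjusted threshold. An example is UGT72B1 in the empty-vector line, with 0.48 ± 0.15 (SE) and an adjusted p of 0.5951. Shifts well above 0.269 could therefore go uncalled for many of these genes.

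The smallest p belonged to UGT71C1. It read 253.0, 254.3, 235.3, 247.4 and 279.6 in replicates 1 to 5 of the VND7 line with DEX and CHX, against 330.4, 369.2, 315.0, 368.1 and 309.5 under CHX alone. All 5 arrays with DEX lay below all 5 without it, with means of 253.9 ± 16.2 and 338.4 ± 28.62 (SD, n = 5 each). The log2 difference was -0.44 ± 0.15 (SE) with an adjusted p of 0.7069 (0.2168 in the fit blocked by replicate number). Groups of 5 with no overlap were seen for 1.09% of all probe sets in this comparison. In the empty-vector line UGT71C1 differed by -0.07 with overlapping groups, and its difference between the 2 responses did not pass the test (adjusted p = 1).

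The difference furthest from zero in this line was a positive one, in the dim UGT74F1, a salicylic acid glucosyltransferase. It read 5.1, 38.3, 22, 30.5 and 43.1 in replicates 1 to 5 with DEX and CHX, against 3.6, 17.6, 5.3, 17.1 and 25.6 under CHX alone. Each array with DEX lay above its same-numbered partner while the groups overlapped, and the log2 difference of 1.03 ± 0.76 (SE) did not pass (adjusted p = 1, and 0.6628 with the block). The 4 smallest p also included UGT72B3 (log2 difference -0.56 ± 0.31, adjusted p = 1) and UGT85A4 (0.31 ± 0.19, adjusted p = 1), both with overlapping groups.

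No measured gene that glycosylates lignin precursors or hydroxycinnamic acids passed in the VND7 line. Of the 4 listed hydroxycinnamic acid genes 3 were measured, and UGT84A2 was not. UGT72E2 and UGT72E3 glucosylate coniferyl and sinapyl alcohols, and UGT72E1 was listed in the same class. UGT72B1 acts on monolignols and on foreign chlorinated phenols and anilines. UGT72E1 averaged 645.6 ± 115.2 with DEX and CHX, against 621.7 ± 87.22 under CHX alone (SD, n = 5 each). UGT72E2 averaged 159.1 ± 47.33 with DEX and CHX, against 152.1 ± 51.62. UGT72B1 averaged 813.1 ± 179.7 with DEX and CHX, against 836.8 ± 89.72. The groups overlapped for all 3 of these genes. UGT72E3 averaged 14.34 ± 13.97 with DEX and CHX and 8.76 ± 7.059 under CHX alone, at signals below the array median throughout. UGT84A1, UGT84A3 and UGT84A4, which form glucose esters of hydroxycinnamic acids, differed in sign and size. UGT84A1 had a log2 difference of 0.62 ± 0.80 (SE), with pairs from -0.75 to 2.89, at signals of 3.1 to 59.8. UGT84A3 had -0.10 ± 0.18 and UGT84A4 0.01 ± 0.21.

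The empty-vector line shows the response to DEX without VND7, in 1 line that carries VP16-GR. Effects of DEX itself and of VP16-GR cannot be told apart there. There, too, 0 of 51 UGT genes passed the adjusted threshold (0.281% of all probe sets did), while 3 of 51 had an unadjusted p below 0.05 (5.88%, against 3.66%). These 3 were UGT84A4, UGT72B1 and UGT85A2, and each was higher with DEX in all 5 same-numbered pairs. The median over the 51 genes was 0.06 (all probe sets -0.01), and 29 of 51 differences were above zero (48.6% over all probe sets). All 5 measured UGT72 genes had differences above zero. Among them UGT72E2 (0.01 ± 0.25, SE) and the dim UGT72E3 (0.57 ± 0.69) differed by less than their standard errors.

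UGT84A4 read 114.9, 116.4, 119.3, 90.5 and 141.5 in the empty-vector line with DEX and CHX, against 85.6, 74.8, 67.3, 74.2 and 60.7 under CHX alone. The groups did not overlap, which held for 1.05% of all probe sets, and the log2 difference was 0.68 ± 0.21 (SE, adjusted p = 0.5559). UGT72B1 read 1152.6, 1125.4, 984.9, 1051.6 and 1310.8 with DEX and CHX, against 670.5, 729.5, 883.2, 969.5 and 785.9 under CHX alone. Here, too, the groups did not overlap, and the log2 difference was 0.48 ± 0.15 (SE, adjusted p = 0.5951, and 0.1566 with the block). UGT85A2 averaged 1452 ± 307.9 with DEX and CHX and 1100 ± 354.2 under CHX alone (SD, n = 5 each), with overlapping groups. UGT87A2, next by p, averaged 4155 ± 504.4 with DEX and CHX and 3418 ± 460 under CHX alone (adjusted p = 1).

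With the replicate number as a block, 1 UGT gene passed in the empty-vector line, against 0.712% of all probe sets. This gene was UGT76B1, which glucosylates isoleucic acid, salicylic acid and N-hydroxypipecolic acid, molecules of plant immunity. UGT76B1 read 79.5, 394.4, 319.5, 105.9 and 90.8 in replicates 1 to 5 with DEX and CHX, against 142.2, 539.1, 429.2, 131.6 and 156.9 under CHX alone. Replicates 2 and 3 were high and replicates 1, 4 and 5 low in both groups, so the groups overlapped widely while each array with DEX lay below its same-numbered partner. The log2 difference was -0.57, with a standard error of 0.12 and an adjusted p of 0.02642 with the block, and a standard error of 0.59 and an adjusted p of 1 without it. The blocked call was lost (adjusted p 0.07033 to 0.105) in 7 of 20 fits that each left out 1 array, namely replicates 1, 4 and 5 of the empty-vector line with DEX and CHX and replicates 1, 2, 3 and 5 of that line with CHX alone. Over the 20 blocked fits the log2 difference lay between -0.64 and -0.51. Without the block it lay between -0.91 and -0.24, and it moved by more than 1.5 times without replicate 1 (-0.32), 2 (-0.91) or 5 (-0.36) of the empty-vector line with DEX and CHX, or replicate 2 (-0.24) or 3 (-0.33) of that line with CHX alone.

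**Figure D2:**
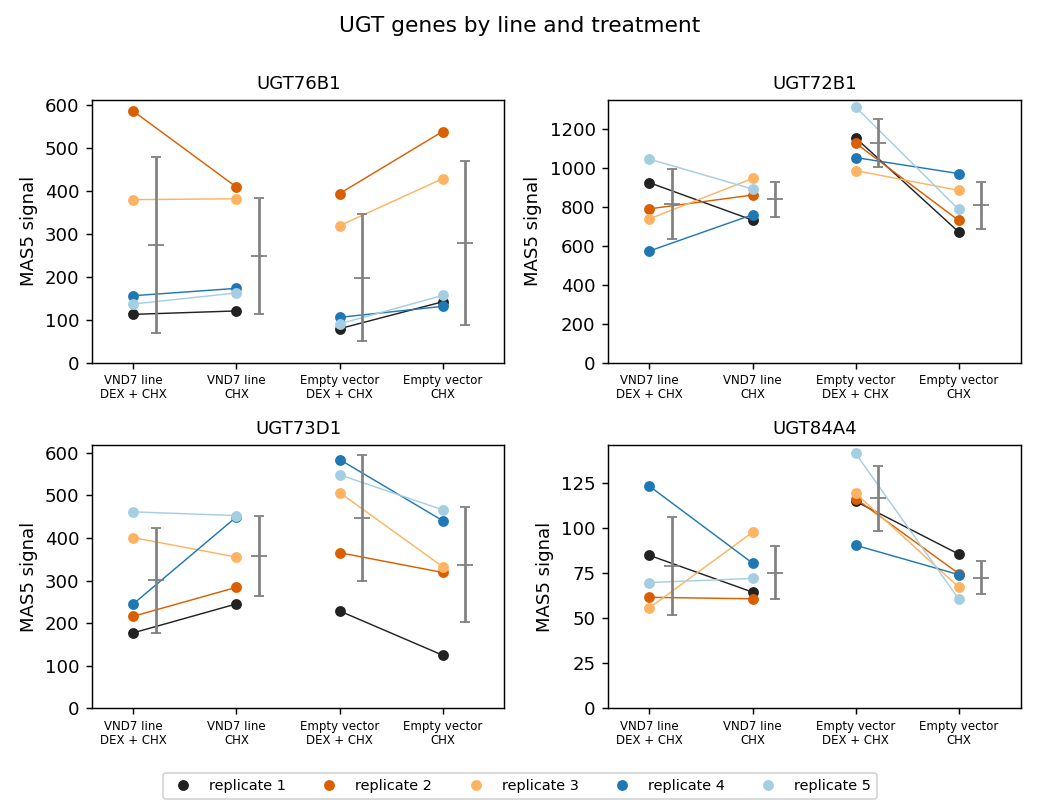
MAS5 signal (linear axis) of UGT76B1, UGT72B1, UGT73D1 and UGT84A4 on each array, by line and treatment. Points are arrays, coloured and joined by replicate number within a line, and grey bars give the mean ± SD of 5 arrays. UGT76B1 lies lower with DEX in all 5 empty-vector pairs, and UGT84A4 and UGT72B1 do not overlap between the empty-vector groups.

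The difference between the 2 DEX responses, VND7 line minus empty-vector line, asks which UGT genes responded to DEX unequally. None passed with or without the block (0 of 51, against 0.391% of all probe sets without it and 1.05% with it). At an unadjusted p of 0.05 there were 2 (3.92%, against 3.64%), UGT72B1 and UGT84A4. UGT72B1 had a difference of -0.57 ± 0.21 (SE, adjusted p = 0.8685), negative in all 5 replicate numbers. UGT84A4 had a difference of -0.66 ± 0.29 (SE, adjusted p = 1), negative in 4 of 5. UGT76B1, whose DEX responses were -0.02 in the VND7 line and -0.57 in the empty-vector line, had a blocked adjusted p of 0.2298 for their difference. The smallest blocked adjusted p of the 51 genes was 0.1759, for UGT73D1 (-0.79, negative in all 5 replicate numbers). Without the block the 4 smallest p also included UGT72B3 (-0.92 ± 0.45) and the dim UGT71B8 (-1.55 ± 0.82), each with an adjusted p of 1. The median over the 51 genes was -0.11, with 16 above zero, against a median of -0.01 over all probe sets and 48% of them above zero.

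**Figure D3:**
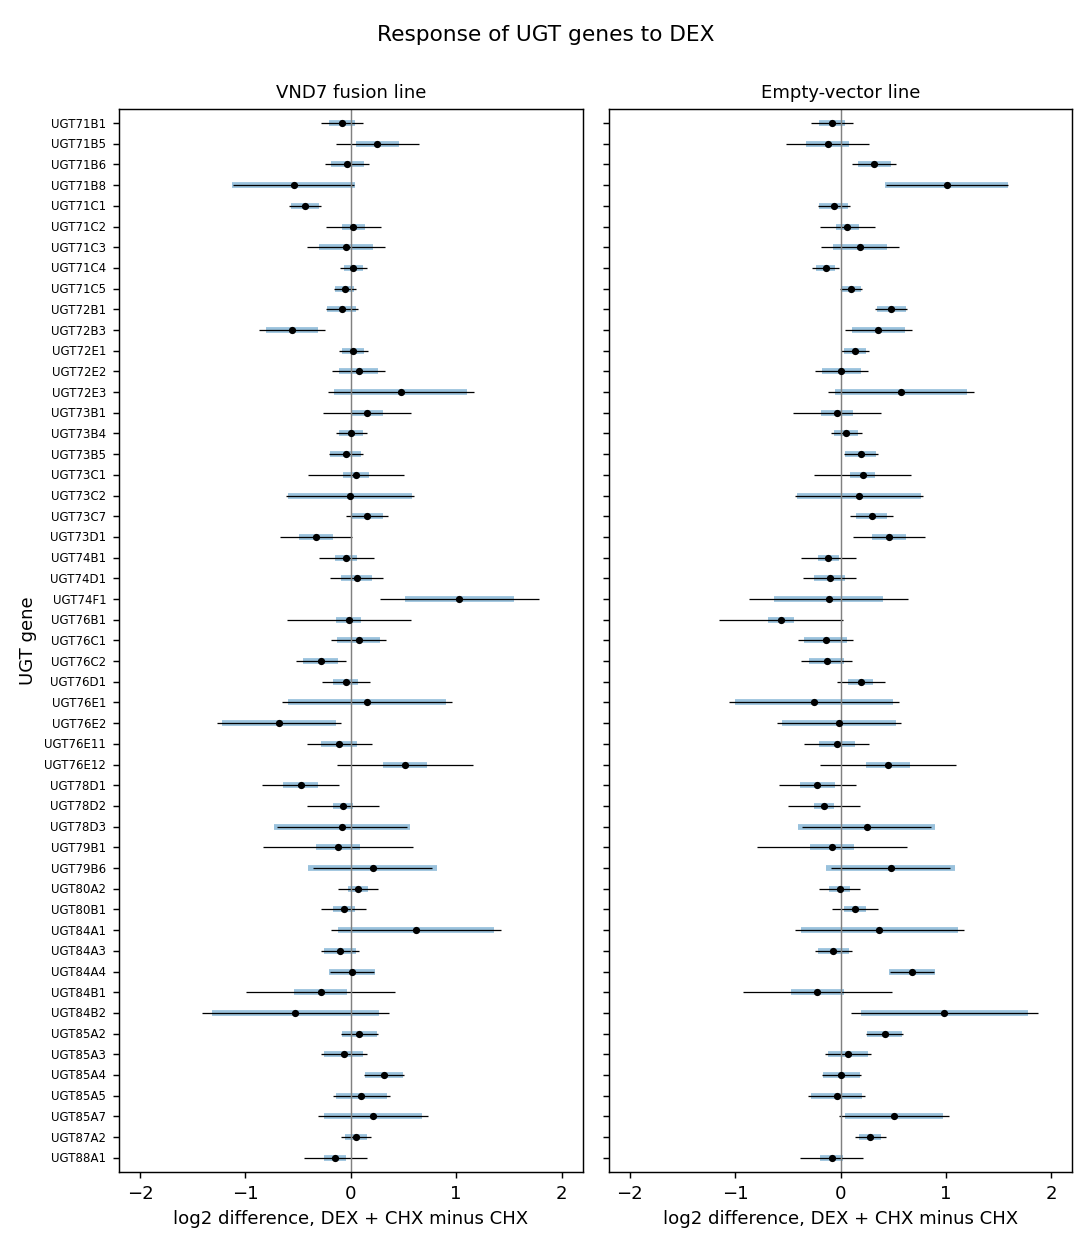
Log2 difference between DEX with CHX and CHX alone for each of the 51 UGT genes, in the VND7 fusion line (left) and the empty-vector line (right). Points are the differences, thin black bars the standard error without the replicate block and thick blue bars that with it. Most points lie within 0.5 of zero in both lines (44 and 45 of 51). The standard error of UGT76B1 in the empty-vector line is 0.12 with the block and 0.59 without it.

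Under CHX alone the VND7 line and the empty-vector line were compared as a baseline. No UGT gene passed (0 of 51, against 0.0264% of all probe sets, and 0 with the block, against 0.0923%), and none had an unadjusted p below 0.05 (2.67% of all probe sets did). No UGT gene had groups of 5 without overlap (0.532% of all probe sets). The median log2 difference was 0.06, with 34 of 51 genes above zero (53.2% of all probe sets were). The smallest p belonged to UGT87A2, with 4053 ± 508.8 in the VND7 line and 3418 ± 460 in the empty-vector line (SD, n = 5 each) and overlapping groups. The abscisic acid gene UGT71B6 followed, with 934.9 ± 115 in the VND7 line and 743.3 ± 149.9 in the empty-vector line (log2 difference 0.36, adjusted p = 0.9998). UGT78D3 (log2 difference 1.04) and UGT71C1 (0.25) completed the 4 smallest p, with the same adjusted p.

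With DEX and CHX in both lines, 0 of 51 UGT genes passed without the block, against 1.32% of all probe sets. 3 of 51 had an unadjusted p below 0.05 (5.88%, against 5.81%), namely UGT72B1, UGT84A4 and UGT72B3. The differences of 22 of 51 genes were above zero (48.4% over all probe sets), and no gene had groups of 5 without overlap (2.19% of all probe sets). With the block UGT76B1 passed, against 3.24% of all probe sets. It read 112.9, 586.3, 380.3, 156.4 and 137 in replicates 1 to 5 of the VND7 line, against 79.5, 394.4, 319.5, 105.9 and 90.8 in the empty-vector line. The VND7 line was higher in all 5 pairs while the groups overlapped, with a log2 difference of 0.50, a blocked standard error of 0.12 and a blocked adjusted p of 0.02326 (0.9999 without the block). This comparison shares the empty-vector arrays with DEX and CHX with the response described above. The blocked call was lost (adjusted p 0.05053 to 0.1086) in 5 of 20 fits, those without replicates 2 and 4 of the VND7 line or without replicates 1, 4 and 5 of the empty-vector line. Over the 20 blocked fits the log2 difference lay between 0.44 and 0.53. Without the block it lay between 0.13 and 0.84, and it moved by more than 1.5 times without replicate 1 (0.75), 2 (0.13) or 3 (0.29) of the VND7 line or replicate 1 (0.25), 2 (0.84), 3 (0.75) or 5 (0.28) of the empty-vector line.

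UGT74F1, the fourth by p without the block, read 5.1 to 43.1 in the VND7 line and 4.6 to 32.9 in the empty-vector line with DEX and CHX (log2 difference 1.43, adjusted p = 0.9562). A pair of further genes lay just outside the threshold here with the block, and both were lower in the VND7 line in all 5 pairs. UGT72B1 read 922.7, 788.8, 737.5, 572.9 and 1043.5 in the VND7 line with DEX and CHX, against the 984.9 to 1310.8 of the empty-vector line. Its log2 difference was -0.49, with a blocked adjusted p of 0.05098. UGT73D1, singled out after its values were seen, read 177.3, 216.2, 400.7, 245.3 and 461.2 in the VND7 line, against 228.6, 365.4, 506.6, 584.1 and 548.2 in the empty-vector line. Its log2 difference was -0.59, with a blocked adjusted p of 0.05479.

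By family, the median response to DEX in the VND7 line ranged from -0.15 (UGT88A1 alone) to 0.10 (UGT85). In the empty-vector line it ranged from -0.16 (UGT78) to 0.37 (UGT84). The UGT84 median was the value of the dim UGT84A1 (0.37 ± 0.80, SE), and 3 of the 5 UGT84 genes were above zero. UGT74 and UGT78, with 3 genes each, had medians of -0.11 and -0.16 there. UGT72 stood at 0.36, the value of UGT72B3 (SE 0.31), and UGT73 at 0.19. Over the 5 group comparisons UGT76B1 was the only gene of any family to pass on the deposited values, with the block and not without it.

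More UGT genes passed a test among replicate numbers than a comparison of groups, as did more of all probe sets. These tests are unlike, since the standard errors of group differences without the block include the variation among replicate numbers. Same-numbered arrays of different groups deviated together from their group means (30 of 30 pairs correlated at 0.558 to 0.835 over 11367 probe sets). Replicates 2 and 3 resembled each other, as did 4 and 5 (median correlation 0.69 over 24 pairs), whereas the other 96 pairs of unlike numbers had a median of -0.394. Deviations from a group mean sum to zero, so positive values for like numbers force negative ones elsewhere, and the -0.394 is no separate observation. The labels do not say what the numbers stand for. In a model with group and replicate number, 27 of 51 UGT genes differed among replicate numbers (52.9%, against 44.5% of all probe sets, F test, adjusted p below 0.05). The contrasts of replicates 4 and 5 minus 2 and 3 and of replicate 1 minus the others are given below as descriptions, with no test, since these sets were seen in the data.

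In replicates 4 and 5, 19 of 51 UGT genes were lower than in 2 and 3 by at least 0.5 in log2 (37.3%, against 15.5% of all probe sets), and 7 were higher by as much (13.7%, against 13.8%). The median was -0.10, against -0.01 over all probe sets, and 22 of 51 lay above zero (49.2% of all probe sets). Replicate 1 lay above the other replicates in 20 of 51 genes (47.4% of all probe sets), higher by at least 0.5 in 4 (14.1%) and lower by as much in 11 (13.8%). Within every one of the 4 groups, 16 genes (31.4%, against 19.3%) had no overlap between replicates 4 and 5 and replicates 2 and 3, in one direction. Replicate 1 stood apart in the same sense for 3 genes (5.88%, against 11.9%), UGT73D1, UGT76C2 and UGT84B1. The families differed in direction. All 8 genes of UGT76 and all 3 of UGT78 lay lower in replicates 4 and 5, with medians of -0.73 and -0.98. Higher there were 6 of 7 in UGT73, 5 of 5 in UGT85 and 2 of 2 in UGT80, with medians of 0.15, 0.20 and 0.60. Some of these lay near zero, such as UGT73B4 (0.04) and UGT85A4 (0.01). No UGT85 gene passed the F test, against 5 of 9 in UGT71, 5 of 8 in UGT76, 4 of 7 in UGT73 and 3 of 3 in UGT74.

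**Figure D4:**
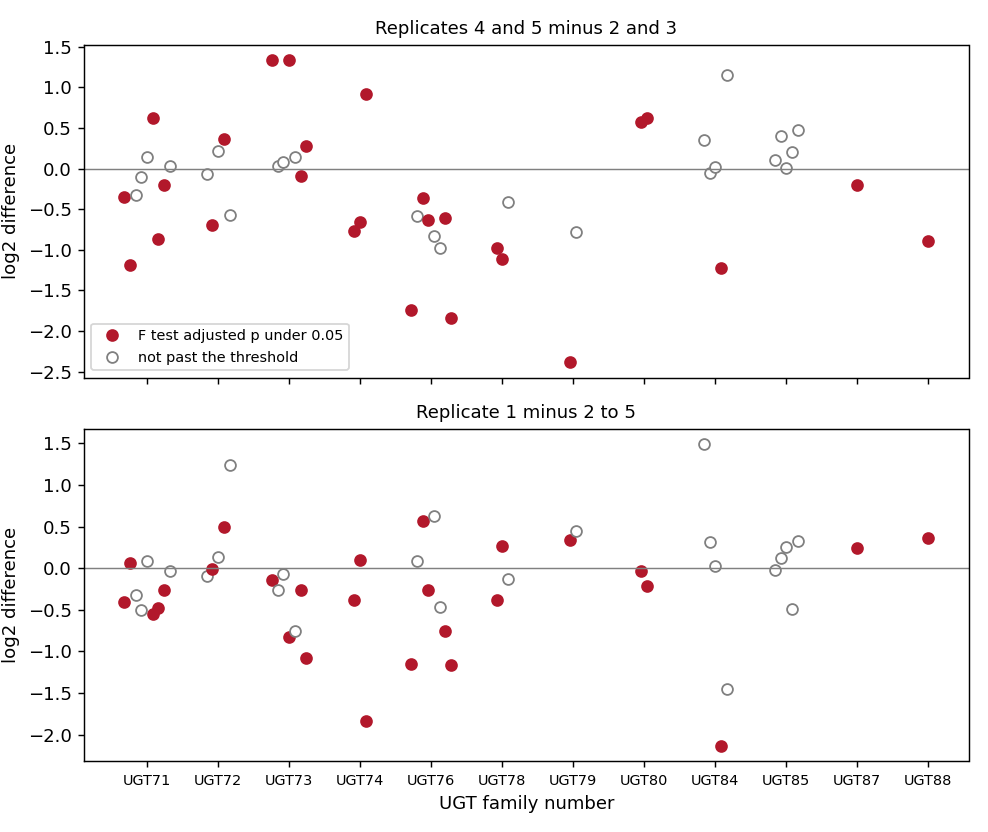
Log2 difference of replicates 4 and 5 minus 2 and 3 (top) and of replicate 1 minus 2 to 5 (bottom), averaged over the 4 groups, for each UGT gene by family number. Filled points are the 27 genes that passed the F test among replicate numbers, open points the other genes. All points of UGT76, UGT78 and UGT79 lie below zero in the top panel, and those of UGT80 and UGT85 above it.

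Genes of flavonoid glycosylation were lower in replicates 4 and 5. UGT79B1 adds xylose to anthocyanins, UGT78D2 adds glucose to flavonols and anthocyanidins, and UGT78D1 adds rhamnose to flavonols. UGT79B1 read 42.2 to 101.4 (median 55.5) over the 8 arrays of replicates 4 and 5, against 243.7 to 340.8 (median 290.9) over those of replicates 2 and 3, and 139.2 to 257.2 in replicate 1. The 2 sets did not overlap, with a log2 difference of -2.39 and an F-test adjusted p of 2.01e-08. UGT78D2 read 319.9 to 510.4 (median 345.8) in replicates 4 and 5, against 613 to 838.1 (median 752.5) in replicates 2 and 3, a log2 difference of -1.11 (F-test adjusted p = 7.138e-09). UGT78D1 read 126.3 to 349.1 (median 305.8), against 341.7 to 665.5 (median 520.2), a log2 difference of -0.98 (F-test adjusted p = 1.731e-05). UGT78D3, a flavonol arabinosyltransferase, read 2.9 to 26 over all arrays and did not pass (adjusted p = 0.7531).

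UGT genes of immunity and hormones differed among replicate numbers in both directions. UGT76B1 read 90.8 to 173.5 (median 146.7) in replicates 4 and 5, against 319.5 to 586.3 (median 401.9) in replicates 2 and 3, with 79.5 to 142.2 in replicate 1. Its log2 difference was -1.74, and its F-test adjusted p of 1.14e-10 was the smallest of the 51. UGT74F1, the other measured gene of salicylic acid and immunity, went the other way, with 4.6 to 43.1 (median 28.1) in replicates 4 and 5, 4 to 38.3 (median 9.7) in replicates 2 and 3 and 3.5 to 5.2 in replicate 1. Its log2 differences were 0.92 for replicates 4 and 5 and -1.83 for replicate 1 (F-test adjusted p = 0.004211). UGT84B1, which makes the glucose ester of the auxin indole-3-acetic acid, read 54.4 to 209.5 (median 123) in replicate 1, 208.1 to 476.2 (median 330.9) in replicates 4 and 5 and 462.5 to 1072.5 (median 704.1) in replicates 2 and 3. Replicate 1 was lowest in each group, with a log2 difference from the others of -2.14 (F-test adjusted p = 3.195e-07). UGT74D1, which also glucosylates auxins, was lower in replicates 4 and 5 than in 2 and 3 (log2 difference -0.66, F-test adjusted p = 0.001068).

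The measured cytokinin genes did not share 1 pattern. UGT73C1, which glucosylates cytokinins in vitro, read 2041.2 to 3287.7 (median 2507.8) in replicates 4 and 5, against 778.4 to 1132.3 (median 889.6) in replicates 2 and 3 (log2 difference 1.34, F-test adjusted p = 4.124e-09). Replicate 1 sat with 2 and 3, at 709.2 to 1023.6. UGT76C2, a cytokinin N-glucosyltransferase, was highest in replicate 1, with 152.6 to 159.3, against 59.7 to 129.9 on the other arrays (adjusted p = 0.01031). UGT76C1, its neighbour with the same activity, did not pass (adjusted p = 0.064).

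Other genes moved in either direction. UGT73B1 read 509.2 to 830.4 (median 589.9) in replicates 4 and 5, against 186.8 to 286.3 (median 220.6) in replicates 2 and 3 (log2 difference 1.34, F-test adjusted p = 4.349e-07). UGT74B1, which adds glucose to the sulfur of the glucosinolate core, read 1034.2 to 1632.3 (median 1378.8), against 1808.3 to 2404.6 (median 2045.2), a log2 difference of -0.76 (adjusted p = 1.961e-06). The sterol glucosyltransferase genes UGT80A2 and UGT80B1 lay 0.58 and 0.63 higher in replicates 4 and 5 in log2, and both passed (adjusted p = 9.22e-05 and 5.216e-05). UGT80A2 read 714.8 to 997.8, against 453.4 to 582, and UGT80B1 read 362.7 to 496, against 213.7 to 318. UGT76E12 (log2 difference -1.84), UGT88A1 (-0.90) and UGT71C2 (0.63) completed the 10 genes with the smallest p.

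**Figure D5:**
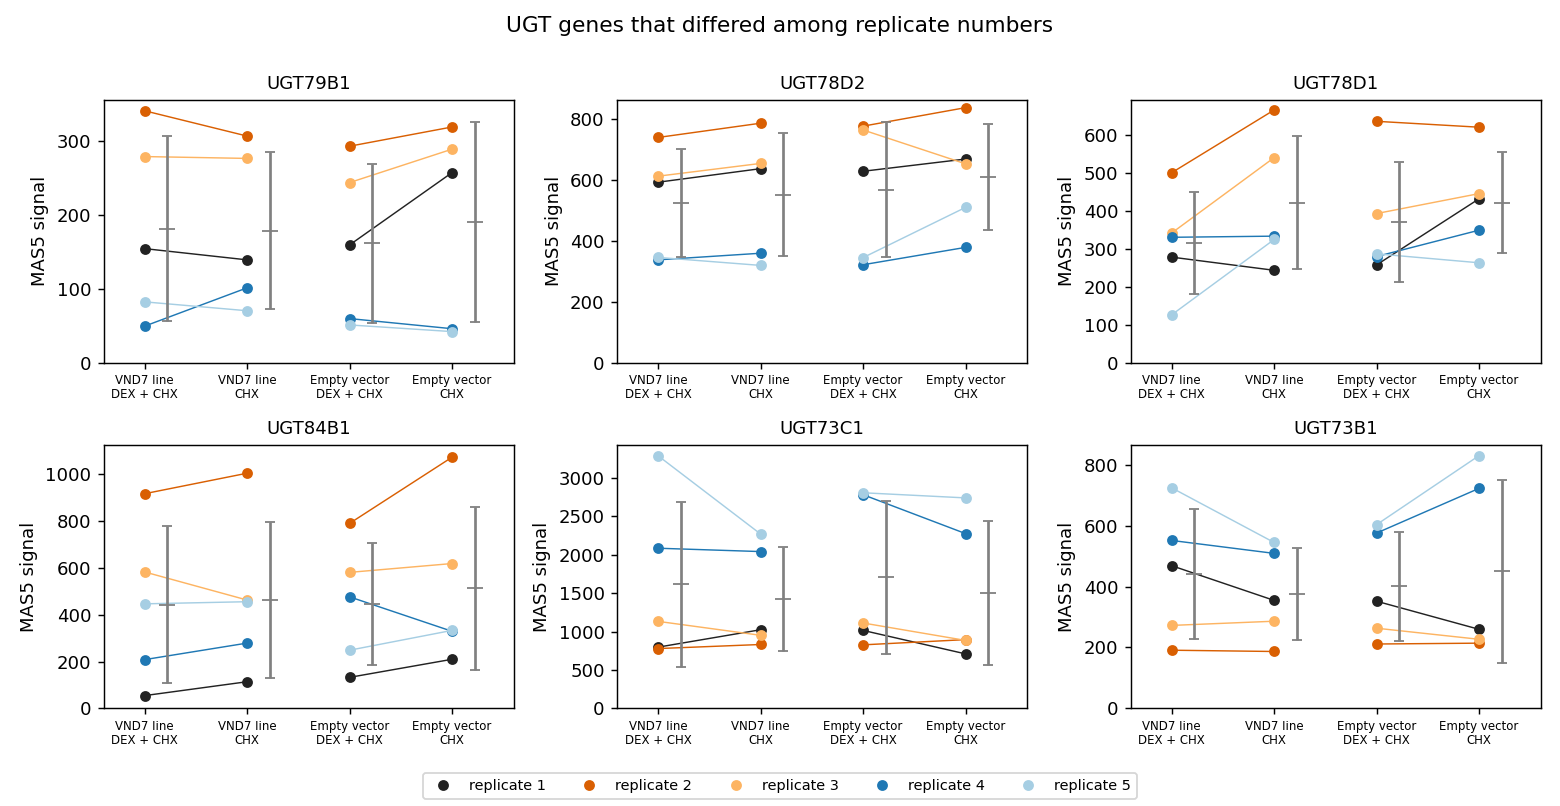
MAS5 signal (linear axis) of 6 UGT genes that passed the F test, on each array by line and treatment. Points are arrays, coloured and joined by replicate number within a line, and grey bars give the mean ± SD of 5 arrays. UGT79B1 and UGT78D2 are lower in replicates 4 and 5, UGT73C1 and UGT73B1 are higher there, and UGT84B1 is lowest in replicate 1, in all 4 groups.

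Other UGT genes did not pass the F test among replicate numbers. UGT71C5, an abscisic acid glucosyltransferase, read 1713.7 to 2529.8 over the 20 arrays, with a standard deviation within groups of 0.15 in log2 and an F-test adjusted p of 0.6374. UGT72E1 read 495.9 to 880.1 (adjusted p = 0.1033), and UGT85A2 read 866.9 to 1835.4 (adjusted p = 0.7894). The 3 measured hydroxycinnamate genes did not pass either, with adjusted p-values of 0.3656 for UGT84A1, 0.2172 for UGT84A3 and 0.9747 for UGT84A4.

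Markers of other kinds also differed among replicate numbers, and their part in the UGT differences was not tested. RCA and LHCB4.1 did not pass the F test (0 of 2), with replicates 4 and 5 above 2 and 3 by 0.08 and 0.14 in log2. Of the measured markers of root hairs and stomata 4 of 5 passed, where 44.5% of all probe sets did. Among them SPCH, which starts the stomatal lineage, was 0.38 higher in replicates 4 and 5 and differed by -1.38 in replicate 1, and the dim MUTE, which acts after it, differed by -1.60 and -1.72. EXPA18 differed by 0.65 in replicate 1 and FMA by -0.49 in replicates 4 and 5, while EXPA7 did not pass (adjusted p = 0.1432).

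Genes that act before or beside the UGTs gave the following counts, to be read against the 44.5% of all probe sets that passed the F test. Of 19 listed flavonoid and anthocyanin synthesis genes 3 were measured, and 2 passed the F test among replicate numbers. DFR, the dihydroflavonol reductase, lay lower in replicates 4 and 5 by a log2 difference of -2.99 (adjusted p = 5.044e-10), and CHIL, an enhancer of flavonoid production, by -2.16 (adjusted p = 3.173e-07). The third, BAN, read 2.3 to 18.2. All 3 measured of 23 phenylpropanoid genes (HCT, CCR2 and ALDH2C4) passed the F test, as did 13 of 22 beta-glucosidases, enzymes that remove the sugars UGTs add, and 8 of 12 glutathione S-transferases. USP, the only measured gene of 30 for UDP-sugar supply, did not pass (adjusted p = 0.5127), whereas the glucosinolate gene BCAT4, 1 of 20 listed, did (adjusted p = 1.401e-06). None of these lists had a called DEX response in the VND7 line with or without the block.

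2 of these genes differed in the comparisons that involve DEX without the block. Of all probe sets 0.281% passed in the empty-vector response, 0.391% for the difference between responses and 1.32% between lines with DEX and CHX. GH3.17, which joins auxin to an amino acid, averaged 714.3 in the empty-vector line with DEX and CHX, against 189.3 under CHX alone (log2 difference 1.91, adjusted p = 0.000814). In the VND7 line it averaged 184.7 with DEX and CHX and 188.7 under CHX alone, and the difference between the responses passed (log2 difference -1.995, adjusted p = 0.01602). It was 1 of 5 measured genes of 26 listed partners of hormone glycosylation, and all 5 passed the F test among replicate numbers (44.5% of all probe sets did). GSTU27, a glutathione S-transferase, averaged 243.8 in the VND7 line and 617.2 in the empty-vector line, both with DEX and CHX (log2 difference -1.35, adjusted p = 0.000123). With the block the DEX response of GSTU27 in the empty-vector line also passed (log2 difference 0.79, adjusted p = 0.000425), where 0.712% of all probe sets did. So did the difference between its 2 responses (adjusted p = 0.00056), where 1.05% of all probe sets did. GSTU22 differed between the lines with DEX and CHX with the block (adjusted p = 0.0007344), where 3.24% of all probe sets did.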

How the data were processed

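Per the submitters' processing notes, MAS5 was used, with no version given. The deposited values are natural log values: on every array the exponentials were whole multiples of 1 step (100% of 13798 to 14327 values per array under 3000 steps, tolerance 0.02), taken as 0.1 signal unit, and each array's median was near 0. From them MAS5 signals were recovered for display, and log2 ratios to the array median were tested. The array number limits the precision.

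limma 3.58.1 in R 4.3.3 (lmFit, eBayes with a variance trend) was fitted to 4 group means over all 22746 probe sets, with Benjamini-Hochberg adjustment over all of them and a threshold of 0.05. Replicate numbers come from the labels. Since same-numbered arrays correlated above 0.1 in 30 of 30 pairs, values with the number as a fixed block are given where they change a call. An F test of replicate numbers used the model of group and number. The fit without the block and the F test were tried on simulated data, with noise drawn independently for each array. The simulated noise held no correlation among same-numbered arrays, and the blocked fit of group differences was not tried. Probe sets were named from the platform annotation and RefSeq. Protein and promoter sequences were not used here.

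Members and lists were chosen with earlier results of these data known. The genes named are those past a threshold with or without the block, the 4 smallest p in each comparison, the 10 smallest in the F test, the highest signal per family and members of listed substrate classes. UGT71C3, UGT71C4, UGT73D1, UGT79B6, UGT84B2, UGT85A5 and UGT85A7 lie outside that rule and were named after their values were seen. Alternatives were the block, a pseudocount, leaving out dim probe sets, quantile normalization, no variance trend and each array left out.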

Additional observations from a re-analysis of the deposited data

Results flagged for a closer look

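Outlying arrays were sought on log2 signals, which spread low values further apart than the linear signals printed here. In each of 204 sets (51 genes in 4 groups of 5 arrays), the highest and lowest arrays were compared with their nearest neighbours. The gap in log2 was divided by the log2 range and set against Dixon's critical value of 0.71. 6 sets exceeded it, and chance gives about 1 in 20. All 6 were low arrays, 4 of them in replicate 1, and 4 came from genes below the array median on all 20 arrays. UGT73D1 read 124.8 in replicate 1 of the empty-vector line with CHX alone, where the nearest array read 318.9. UGT76E11 read 170.1 in the same replicate and group, with the nearest at 374.5. The dim genes were UGT85A5, with 31.7 in replicate 1 of the VND7 line with CHX alone, and UGT85A7, with 7.1 in replicate 2 of the empty-vector line with CHX alone. UGT84B2 read 1.5 in replicate 2 of the VND7 line with DEX and CHX and 6 in replicate 1 of the empty-vector line with DEX and CHX.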

How the results depend on the processing

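The counts of called UGT genes in the 5 group comparisons were 0 without the block under each alternative run (pseudocount, dimmest 40% left out, quantile normalization, no variance trend, MAS5 scaling without median centring, each of 20 arrays left out). With the replicate block 1 gene passed in the empty-vector DEX response and 1 between lines with DEX and CHX, UGT76B1 in both, and no other call changed. In alternatives chosen after seeing the data, the block with MAS5 scaling, a pseudocount or quantile normalization gave 1 gene each in the empty-vector response. Between lines with DEX and CHX it gave 3, 2 and 3 (UGT76B1 and UGT73D1 in each, UGT72B1 with MAS5 scaling and quantile normalization), and the cause was not tested. Genes that differed among replicate numbers numbered 24 to 29 with 1 array left out and 24 to 30 over all alternatives without the block. The median over the UGT genes ranged from -0.11 to 0.03 for DEX in the VND7 line, 0.01 to 0.13 in the empty-vector line, -0.19 to -0.05 for their difference, -0.02 to 0.14 between lines under CHX and -0.08 to -0.00 with DEX. Of 22 differences recomputed for single genes (the 4 smallest p in each group comparison and UGT76B1), none changed sign; the direction between replicate sets was not recomputed. The lowest-mean probe set per locus could not be tried, since 0 loci had several.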
